A study of Mus musculus with 12 samples.

Results

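The genes described here build and run cilia. Members were found by symbol. A row of the count table was taken if its symbol was Foxj1 or a numbered member of the Dnah, Rsph, Tekt, Ift or Bbs families. Of the 24421 genes in the table, 46 symbols matched, and 39 of them had a summed count of at least 10 over the 12 libraries. These 39 genes fell into 17 of motile cilia (Foxj1, 9 Dnah, 5 Rsph and 2 Tekt genes) and 22 general ciliary genes (14 Ift and 8 Bbs genes). The 7 symbols below that sum were Tekt1 (8 counts), Tekt4 (7), Dnah6 (5), Dnah10 (4), and Rsph14, Rsph6a and Tekt3, each listed at 0.

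Cilia are hair-like projections built on a core of microtubules, the axoneme. Motile cilia beat by means of axonemal dynein motors (Dnah heavy chains), steered by radial spokes (Rsph proteins) and stiffened by tektins (Tekt), and the transcription factor Foxj1 switches this programme on. All cilia, including the single immotile primary cilium, are assembled by intraflagellar transport (Ift proteins), and the BBSome (Bbs proteins) carries membrane receptors in and out. In liver, the cells that line the bile ducts (cholangiocytes) carry primary cilia that sense bile flow, whereas hepatocytes in general lack them.

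RNA was sequenced from liver tissue without tumour of 12 male mice, killed at 4 months. The strains were LiK and LiKM, and mice of each ate either normal chow or, starting at 5 weeks, chow with 0.06% ACR, an acyclic retinoid tested against liver cancer. This gave 4 groups of 3 mice. The labels give no alleles. From what is known of the study, a Cre driver active in hepatocytes and their precursors acts in both strains, and the LiKM strain alone is designed to lose Mdm2, which keeps p53 low, in these cells. The titles name separate mice, so the errors below include the spread between animals.

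Totals ran from 10124813 to 18647156 counts per library. Levels below are in CPM, counts relative to the library total, after scaling by TMM factors, which lay between 0.83 and 1.24. Mdm2, counted over the whole gene, was at 21.6 to 25.8 CPM in the 6 LiK libraries and at 29.0 to 67.2 CPM in the 6 libraries labelled LiKM. A count over the whole gene does not check a deletion of some exons, so the labels are taken as given. Of the LiKM libraries, 3 stood apart in clock genes: normal diet 3 and ACR 3 had Per2, a clock repressor, at 34.9 and 8.54 CPM against 97.7 to 147 CPM in the other 4 LiKM libraries, and ACR 2 and ACR 3 had Npas2, a clock activator, at 10.4 and 18.2 CPM against 0.0622 to 1.51 CPM. Without these 3 libraries the counts of called members were the same in all 5 comparisons (5 motile and 4 general genes between strains on the normal diet, Foxj1 on ACR), and each of the 9 normal-diet calls below held, with edgeR adjusted p up to 0.0497 (Rsph9). Sums and other lists are given with all 12 libraries.

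Promoter sequence was available for 33 of the 39 genes, in RefSeq's GRCm38.p6 assembly, as 250 bases before and 50 bases after each start site. Foxj1 and Ift122 were not among the 33. RFX factors, which act with Foxj1 on ciliary genes in many animals, bind the X-box, searched here as 2 inverted copies of GTTNCC with 2 bases between them, on both strands. A single arm of it was searched as GTTGCC, which can lie within an X-box. The core site of forkhead factors, the family of Foxj1, was searched as GTAAACA. The arm stood in 4 of 14 motile and 8 of 19 general promoters, against 14.1% of 27025 genes with a promoter. The full X-box in this form stood in 0 of 14 motile promoters and 1 of 19 general promoters (Bbs7), against 0.529% of genes. Other spacings and other arm letters were not searched, so these counts cover this form alone. The forkhead core stood in 1 of 14 motile promoters (Dnah17) and 0 of 19 general promoters, against 4.05% of genes. A match is a stretch of letters and not evidence of binding. Of the genes that differed between the strains, Dnah7b, with 1 arm, and Ift57, with 2, held such letters. Dnah5, Dnah2, Rsph9, Bbs12 and Bbs2 held none of the 3 motifs in this window. The promoters of Ift57 and Dnah7b are printed because these genes rose in LiKM, and that of Bbs7 because it holds the X-box as searched. They are written 5′ to 3′ on the gene's strand, with the motif in capitals. The Ift57 window (chr16:49699044-49699343, plus strand) has arms whose first bases lie at -87 and -60 from the start site. The Dnah7b window (chr1:46066603-46066902, plus strand) has one at -163. In the Bbs7 window (chr3:36613340-36613639, minus strand) the X-box begins at -121 and includes the arm. The Ift57 arm at -60 is followed, after 1 base, by GGTAAC, an inverted copy of GTTNCC. It is therefore not a lone arm, and this spacing was outside the search.
Ift57: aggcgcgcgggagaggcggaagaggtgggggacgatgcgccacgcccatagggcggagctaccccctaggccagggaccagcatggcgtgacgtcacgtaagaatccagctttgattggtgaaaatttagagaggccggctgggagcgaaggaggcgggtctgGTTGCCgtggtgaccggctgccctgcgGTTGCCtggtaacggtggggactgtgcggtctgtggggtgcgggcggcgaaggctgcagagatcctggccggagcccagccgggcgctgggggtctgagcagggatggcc
Dnah7b: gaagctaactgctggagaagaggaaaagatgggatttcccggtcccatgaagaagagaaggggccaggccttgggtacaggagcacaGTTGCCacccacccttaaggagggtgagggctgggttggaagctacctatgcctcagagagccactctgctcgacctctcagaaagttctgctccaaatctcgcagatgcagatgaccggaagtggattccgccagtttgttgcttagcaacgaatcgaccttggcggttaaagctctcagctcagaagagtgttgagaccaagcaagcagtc
Bbs7: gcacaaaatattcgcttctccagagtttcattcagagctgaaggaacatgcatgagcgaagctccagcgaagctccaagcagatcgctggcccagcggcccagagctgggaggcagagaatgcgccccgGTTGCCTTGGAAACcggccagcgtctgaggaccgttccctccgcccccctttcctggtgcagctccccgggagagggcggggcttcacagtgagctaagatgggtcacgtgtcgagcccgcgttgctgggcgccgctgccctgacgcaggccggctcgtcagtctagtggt

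The strains were first compared without the drug, LiKM against LiK on normal chow. Foxj1 and 4 more motile cilium genes were higher in LiKM livers, as were 4 general genes, and the abundant motile pair Rsph3a and Rsph3b did not pass. With edgeR's quasi-likelihood test, adjusted over 13880 genes, 5 of 11 tested motile genes rose and 0 fell, and 4 of 22 general genes rose and 0 fell, where 13.2% of all genes tested rose and 8.61% fell (21.8% in either direction). The median log2 fold change was 1.71 for the tested motile genes, 0.35 for the general genes and 0.02 for all genes. These counts and medians are a description. Of the 11 motile genes 8, and Bbs12 among the general ones, reached the low-count filter only through LiKM libraries. The filter asked for at least 0.677 CPM in 3 libraries, and only Dnah17, Rsph3a and Rsph3b among motile genes did so in LiK. With library size alone as scaling, the median of all genes moved to 0.40, 8 of 11 motile and 13 of 22 general genes rose, and 4716 of the 4831 genes called overall were higher in LiKM, against 1836 of 3031 with TMM. Whether motile and general genes differ as classes was not tested. In bulk tissue, fewer cells of a type and less RNA per cell cannot be told apart.

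Foxj1, the master transcription factor of motile cilia (mm10, chromosome 11, 116330704 to 116335399, minus strand), had 4, 3 and 1 counts in LiK livers and 114, 93 and 112 in LiKM livers. Scaled, these were 0.282, 0.170 and 0.0837 CPM in LiK and 6.84, 6.55 and 8.91 CPM in LiKM. All 3 LiKM libraries lay far above all LiK libraries. Foxj1 rose 39.0-fold (log2 5.29, SE 0.56, edgeR adjusted p = 0.000214). Without the 3 libraries apart in clock genes the log2 fold change was 5.11 (edgeR adjusted p = 0.00166). Per kilobase of exon, Foxj1 was at 2.83 CPM in LiKM on the normal diet, the highest of the motile genes there after Rsph3a (4.64) and Rsph3b (4.27), which share reads.

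Axonemal dynein heavy chains came next. Dnah5, an outer arm heavy chain, had 0 counts in all 3 LiK libraries and 20, 28 and 18 in the LiKM libraries, or 1.20, 1.97 and 1.43 CPM. With a floor of 3 counts over the LiK group it was at least 22.4-fold higher in LiKM, and edgeR called the rise (adjusted p = 0.0037). Its fitted log2 fold change of 7.51 rests on the prior count of the fit and is no bound.

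Dnah7b, an inner arm heavy chain, stood at 0.282, 0.0283 and 0.167 CPM in LiK and at 1.14, 1.44 and 1.47 CPM in LiKM. The groups did not overlap, and the rise was 8.99-fold (log2 3.17, SE 0.59, edgeR adjusted p = 0.00424). Dnah7b and its near copy Dnah7a shared reads, with values that were not whole in 7 and 6 libraries, so the split between them is uncertain. Dnah2, another inner arm heavy chain, stood at 0.423, 0.113 and 0.502 CPM in LiK and at 1.08, 1.55 and 1.51 CPM in LiKM. It rose 4.1-fold (log2 2.03, SE 0.49, edgeR adjusted p = 0.0135) with no overlap. With the mouse numbers as a block within LiKM, Dnah2 no longer passed (log2 1.58, edgeR adjusted p = 0.0685).

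Rsph9, a protein of the radial spoke head, stood at 0.493, 0.849 and 0.0837 CPM in LiK and at 1.62, 2.11 and 1.27 CPM in LiKM. The lowest LiKM library lay above the highest LiK library. The 3.28-fold rise (log2 1.71, SE 0.52, edgeR adjusted p = 0.0343) passed the threshold, but this call ended in 7 of 21 alternatives, with adjusted p up to 0.108. The gene overlaps Mrps18a on the opposite strand, and the strand setting of the counting is not stated in the labels or files.

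The other 6 tested motile genes did not pass. Tekt2, a tektin of the axoneme, was at 0.167 to 0.211 CPM in LiK and 0.42 to 1.03 CPM in LiKM (log2 1.95, SE 0.68, edgeR adjusted p = 0.0605). Dnah1, an inner arm heavy chain, was at 0.0566 to 0.282 and 0.352 to 0.96 CPM (log2 1.67, edgeR adjusted p = 0.1). In both genes the strains did not overlap, whereas Dnah11, an outer arm heavy chain, overlapped (log2 1.28, edgeR adjusted p = 0.113). Dnah17, which overlaps Pgs1 on the opposite strand, had a log2 fold change of 0.46 (edgeR adjusted p = 0.551). The near-identical pair Rsph3a and Rsph3b were the most abundant motile members per kilobase and lay at -0.03 and -0.06, or at 0.35 and 0.32 with library size alone, where they did not pass either. They had 14.3 ± 0.78 and 13.9 ± 1.41 CPM in LiK (mean ± SD, n = 3) against 14.0 ± 0.55 and 13.3 ± 0.70 CPM in LiKM. Their level dominates the motile sum, so sums below leave them out.

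A further 6 motile genes were too low for the test, with summed counts of 81 (Dnah8), 40 (Tekt5), 24 (Rsph4a), 20 (Rsph1), 10.2 (Dnah7a) and 10 (Dnah9). All 6 had a higher mean in LiKM on the normal diet. Tekt5, a tektin, had 2, 1 and 0 counts in LiK and 6, 7 and 9 in LiKM, and Rsph1, a spoke head protein, 0, 0 and 1 against 4, 2 and 4. In a fit without the filter none of the 6 passed edgeR's test, with Dnah7a nearest (adjusted p = 0.0702), and 3 had an unadjusted p under 0.05. Over all 39 members, tested or not, the LiKM libraries lay wholly above LiK in 10 of 17 motile and 10 of 22 general genes. They lay wholly below in 0. Of the 16251 genes with the same summed count, 20.6% lay wholly above and 17% wholly below. These counts are a description too. Among the 10 motile genes, Dnah7a, Tekt5 and Rsph1 reached the summed count of 10 only through LiKM libraries, and Dnah7a shares reads with Dnah7b.

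**Figure D1:**
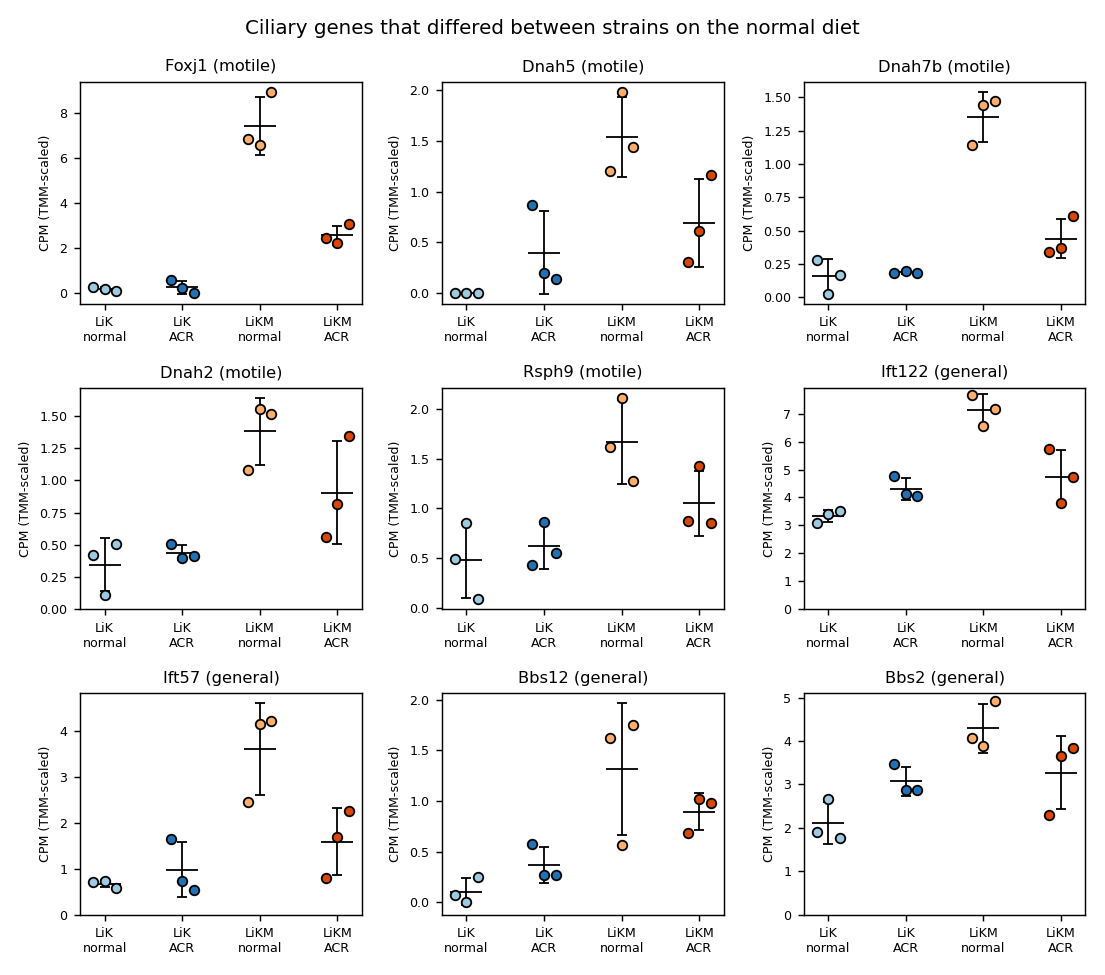
Levels (CPM, y axis from 0, scale differs between panels) of the 9 ciliary genes that rose in LiKM on the normal diet, by strain and diet, with a point per mouse, the mean as a bar and the SD as whiskers (n = 3). In all 9 panels the 3 LiKM mice on the normal diet lie above the 3 LiK mice on the normal diet; Foxj1 reaches 8.91 CPM there and reaches at most 0.577 CPM in LiK.

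Among general genes, 4 intraflagellar transport and BBSome genes rose on the normal diet. Ift57, a subunit of the IFT-B complex that travels towards the ciliary tip, stood at 0.704, 0.736 and 0.586 CPM in LiK and at 2.46, 4.16 and 4.22 CPM in LiKM. The groups lay far apart, and the rise was 5.23-fold (log2 2.39, SE 0.46, edgeR adjusted p = 0.00512). Ift122, a subunit of the IFT-A complex for the return journey, stood at 3.10, 3.40 and 3.52 CPM in LiK and at 7.68, 6.55 and 7.16 CPM in LiKM. It rose 2.14-fold (log2 1.09, SE 0.18, edgeR adjusted p = 0.00232) with no overlap and little spread.

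Bbs12, a chaperonin-like protein needed to assemble the BBSome, had 1, 0 and 3 counts in LiK and 27, 8 and 22 in LiKM, or 0.0704, 0 and 0.251 CPM against 1.62, 0.563 and 1.75 CPM. LiKM normal diet 2 was the lowest of its group and still lay above all LiK libraries. Bbs12 rose 12.9-fold (log2 3.69, SE 0.74, edgeR adjusted p = 0.00603). It overlaps Cetn4 on the opposite strand, so its counts are uncertain. Bbs2, a subunit of the BBSome, stood at 1.90, 2.66 and 1.76 CPM in LiK and at 4.08, 3.87 and 4.93 CPM in LiKM. It rose 2.01-fold (log2 1.01, SE 0.25, edgeR adjusted p = 0.0157), a call that ended in 4 of 21 alternatives, among them the block within LiKM (log2 0.75, edgeR adjusted p = 0.0831).

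The other 18 general genes did not pass. Ift81 (log2 0.76), Ift43 (0.78), Ift74 (0.43), Bbs1 (0.78), Ift80 (0.34) and Ift88 (0.25) did not overlap between the strains and lay higher in LiKM, with edgeR adjusted p from 0.117 to 0.365. At the other end, Ift140, an IFT-A subunit, had a log2 fold change of -0.29 (edgeR adjusted p = 0.307). The abundant general genes were among those closest to no difference. Ift20, which also works at the Golgi and was the highest general gene per kilobase of exon, had 24.5 ± 0.6 CPM in LiK and 21.7 ± 2.42 CPM in LiKM, and Ift52 22.8 ± 1.26 and 20.3 ± 2.61 CPM. Bbs12 and Ift57, with the largest fold changes, were the lowest general genes per kilobase in LiK on the normal diet, at 0.044 and 0.236 CPM per kilobase, just under Bbs1 at 0.237.

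**Figure D2:**
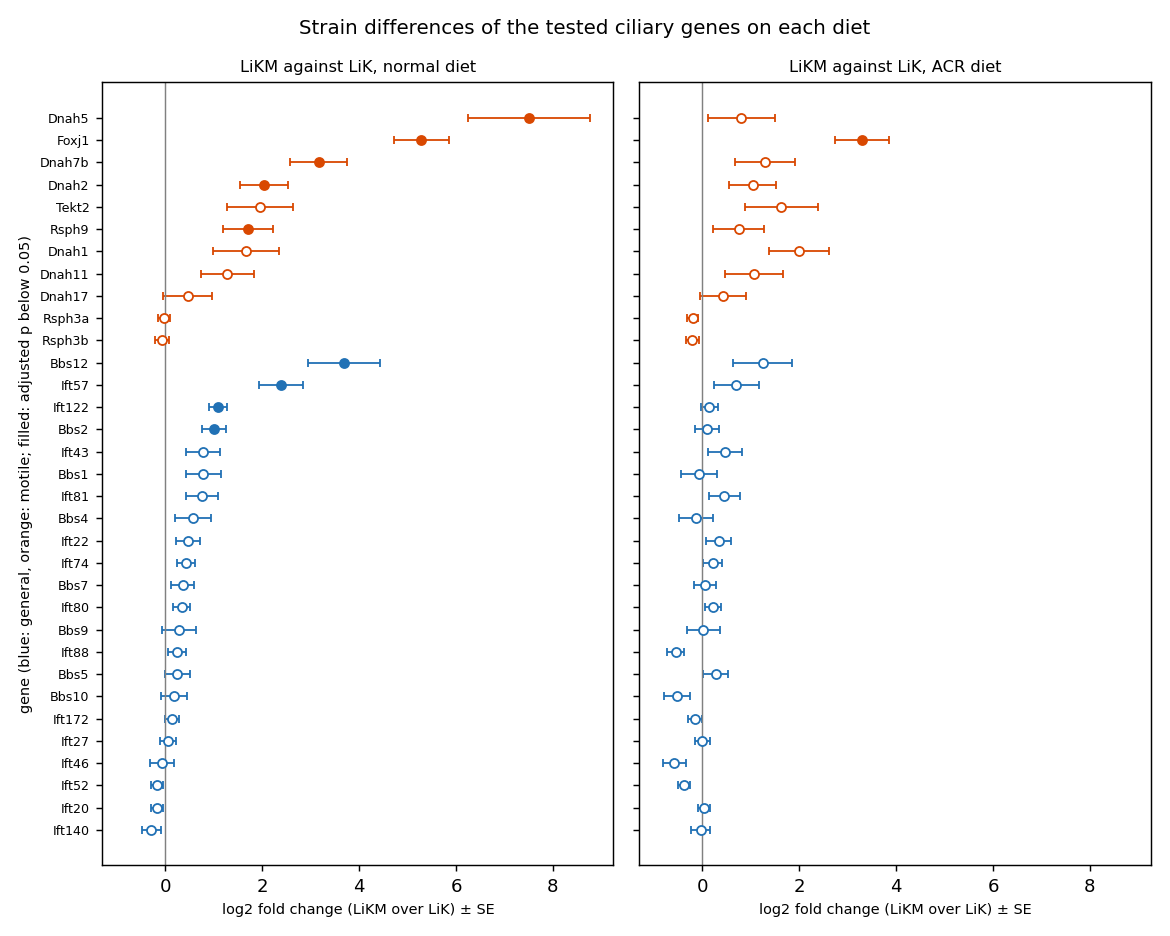
Log2 fold change of LiKM over LiK (x axis, whiskers are the SE) for the 33 tested ciliary genes (y axis; orange motile, blue general) on the normal diet and on ACR, with filled points for edgeR adjusted p under 0.05. On the normal diet 9 genes are filled, all to the right of 0, and on ACR Foxj1 alone is filled, at 3.30; the Dnah5 point on the normal diet rests on a group with 0 counts and is no bound.

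The 17 motile genes summed to 32.8, 33.4 and 28.9 CPM in LiK livers and 45.7, 44.2 and 48.9 CPM in LiKM livers without the drug, with no overlap. The level without Rsph3a and Rsph3b was 4.47, 3.20 and 2.97 CPM in LiK livers and 17.6, 18.2 and 21.1 CPM in LiKM livers. The lowest LiKM library was well above the highest LiK library, and the sum is not Foxj1 alone: the 9 dynein heavy chains summed to 2.52 ± 0.66 CPM in LiK and 8.15 ± 0.59 CPM in LiKM, spoke genes without Rsph3a and Rsph3b to 0.60 ± 0.33 and 2.12 ± 0.51 CPM, and the 2 tektins to 0.25 ± 0.09 and 1.27 ± 0.49 CPM. The 22 general genes summed to 140 ± 2.92 CPM in LiK and 156 ± 4.77 CPM in LiKM. No p is given for these sums.

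Markers of bile duct cells moved the same way, and their part in the ciliary result was not tested. Of 18 cholangiocyte markers, 16 rose on the normal diet and 0 fell (median log2 4.35), and their summed level was 226 to 256 CPM in LiK and 902 to 1402 CPM in LiKM. Among them Krt19, a duct keratin, rose from 0.53 ± 0.16 to 10.5 ± 1.41 CPM, Epcam, an adhesion protein of duct and progenitor cells, from 0.65 ± 0.14 to 16.3 ± 5.37 CPM, and Cftr, the chloride channel of duct cells, from 0.089 ± 0.109 to 8.62 ± 2.7 CPM (edgeR adjusted p = 9.88e-05, 0.000319 and 9.88e-05).

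Markers of cells with many motile cilia were measured too. Of 12 such markers, Mcidas, Gmnc (both needed to form many basal bodies), Sntn and Cdhr3 were at 0 in all 12 libraries. The low-count filter kept 3, and which of them reached it only through LiKM was not counted. Ccdc39, a ruler protein of the axoneme, and Tppp3, a tubulin-binding protein, rose (log2 0.69 and 2.71, edgeR adjusted p = 0.034 and 0.0325). Cfap126 did not pass (0.20, edgeR adjusted p = 0.789). Of all genes tested, 13.2% rose. These 3 genes also stand in the lists of other ciliary genes below. The summed level of the 12 was 4.27 to 5.60 CPM in LiK and 6.23 to 9.11 CPM in LiKM on the normal diet, which do not overlap.

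Markers of other cell types were also counted on the normal diet, where 13.2% of all genes tested rose and 8.61% fell. Of 12 hepatocyte markers 3 fell and 0 rose (1 fell with library size alone). Of 5 tested mesothelial markers 2 rose, Krt19 among the list, with summed levels of 1.69 to 7.81 CPM in LiK and 14.4 to 27.2 CPM in LiKM. Rises numbered 5 of 7 tested T and NK cell markers (1 fell), 3 of 4 neutrophil, 4 of 10 stellate and fibroblast, 2 of 10 macrophage, 1 of 6 B and plasma cell and 1 of 8 endothelial markers. The macrophage, B and plasma cell and endothelial counts were near the share of all genes. Of red cell precursor markers 1 of 4 fell, as did 0 with library size alone, and the 1 tested pancreatic acinar marker did not pass. Their part in the ciliary result was not tested.

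**Figure D3:**
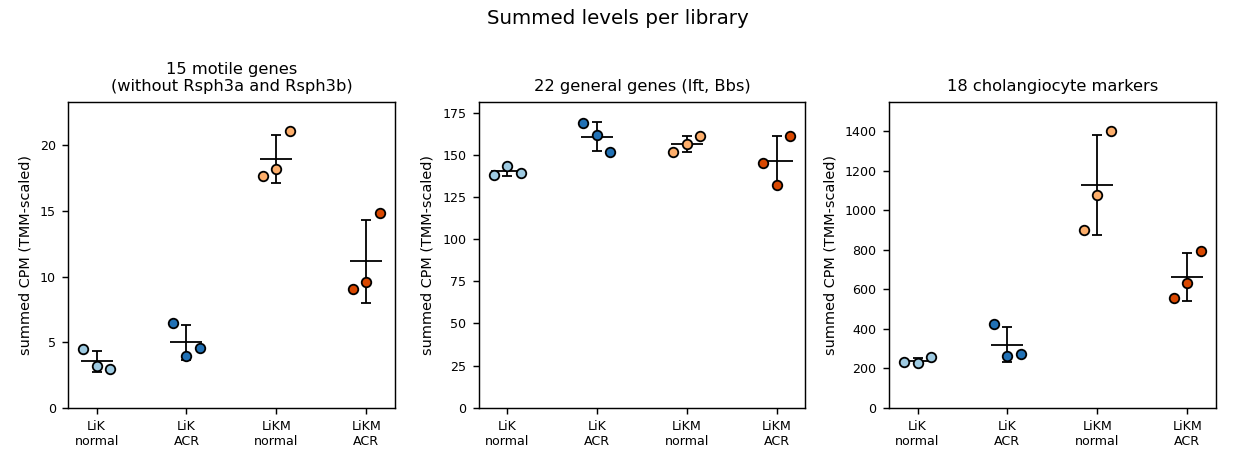
Summed level (CPM, y axes from 0) of 15 motile genes, of the 22 general genes and of 18 cholangiocyte markers in each library, with a point per mouse, the mean as a bar and the SD as whiskers (n = 3). The sum of the 15 motile genes, which leaves out Rsph3a and Rsph3b, and the cholangiocyte sum are highest in the 3 LiKM mice on the normal diet (17.6 to 21.1 and 902 to 1402 CPM), and the general sum stays between 132 and 169 CPM in all 12 libraries.

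LiKM against LiK on ACR asks for the strain difference under the drug. Foxj1 was again higher in LiKM, and it was the 1 of 11 motile genes that passed; 0 of 22 general genes passed edgeR's test, with 3 at an unadjusted p under 0.05 and 2 lower by DESeq2. Of all genes 5.55% rose and 4.24% fell (9.79% in either direction), and 3825 of 13880 had an unadjusted p under 0.05. The median log2 fold change was 1.04 for tested motile genes, 0.04 for general genes and 0.02 for all genes. As on the normal diet, these counts and medians are a description. The same 8 of 11 motile genes, and Bbs12, reached the low-count filter only through LiKM libraries, those on ACR included.

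Foxj1 had 8, 3 and 0 counts in LiK on ACR and 39, 33 and 50 in LiKM, or 0.577, 0.200 and 0 CPM against 2.43, 2.24 and 3.05 CPM. All LiKM libraries lay above all LiK libraries. The rise was 9.83-fold (log2 3.30, SE 0.55, edgeR adjusted p = 0.00732). The call held in 21 of 21 alternatives (log2 2.71 to 4.55, adjusted p up to 0.045). The highest adjusted p came without the 3 libraries apart in clock genes, where LiKM on ACR has 1 library, assumed to vary like the other groups.

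Dnah1 stood at 0.433, 0.133 and 0.137 CPM in LiK on ACR and at 1.24, 0.542 and 1.04 CPM in LiKM. The groups did not overlap, edgeR did not call it (log2 1.99, SE 0.62, adjusted p = 0.062), and DESeq2 did (log2 2.02, adjusted p = 0.0497), as did edgeR with the block within LiKM (log2 2.53, adjusted p = 0.0241). Dnah2 (log2 1.04, edgeR adjusted p = 0.184) and Dnah7b (1.30, 0.2) also did not overlap and did not pass. Dnah5, the largest normal-diet difference among dyneins, had 12, 3 and 2 counts in LiK and overlapped with LiKM (log2 0.80, edgeR adjusted p = 0.495).

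The general genes showed no common direction on ACR. Bbs12 (log2 1.25, edgeR adjusted p = 0.206) and Ift80 (0.22, 0.441) lay wholly above LiK. Ift52 and Ift88, both IFT-B subunits, lay wholly below it (log2 -0.38 and -0.55, edgeR adjusted p = 0.0714 and 0.0724), and these are the 2 that DESeq2 called lower (adjusted p = 0.0466 and 0.044). Ift46, also of IFT-B, had a log2 fold change of -0.58 (edgeR adjusted p = 0.156) and passed as lower with the block within LiKM (-0.94, edgeR adjusted p = 0.0155). Over all members, 4 of 17 motile and 2 of 22 general genes lay wholly above LiK, where 16.6% of genes with the same summed count did, and 0 and 2 lay wholly below, where 14.3% did.

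Of the cholangiocyte markers, 13 of 18 rose on ACR and 0 fell (median log2 2.25), with summed levels of 261 to 424 CPM in LiK and 556 to 796 CPM in LiKM. Their part in the Foxj1 difference was not tested. Markers of other cells that rose on ACR were 2 of 7 T and NK cell, 3 of 4 neutrophil, 1 of 10 macrophage, 1 of 10 stellate and fibroblast, 1 of 6 B and plasma cell and 1 of 5 mesothelial markers. Of all genes tested, 5.55% rose there, so lists with 1 such marker say little.

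ACR against the normal diet asks for the effect of the drug in each strain. These comparisons share their control libraries with the strain comparisons above. In LiK, edgeR called 0 of 11 motile and 0 of 22 general genes, where 0.195% of all genes passed (0.13% higher, 0.0648% lower). At an unadjusted p under 0.05 there were 1 motile and 3 general genes, where 1953 of all 13880 genes were, and DESeq2 called 1 motile gene. That gene was Dnah5, with 0 counts in every LiK mouse without the drug and 12, 3 and 2 with it. It was at least 5.85-fold higher on ACR, and 12 of its 17 counts came from 1 mouse (edgeR adjusted p = 0.163, DESeq2 adjusted p = 0.0204). Over all members, 1 of 17 motile and 6 of 22 general genes lay wholly higher on ACR and 0 wholly lower, where 12.3% and 13.3% of genes did. The general sum was 152 to 169 CPM on ACR against 138 to 143 CPM, and the cholangiocyte marker sum 261 to 424 against 226 to 256 CPM, whose part in this was not tested. Foxj1 did not differ beyond its spread in LiK (log2 0.46, SE 0.80, edgeR adjusted p = 0.821).

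In LiKM, Foxj1 was lower on ACR in each mouse, at 2.43, 2.24 and 3.05 CPM against 6.84, 6.55 and 8.91 CPM on the normal diet. The groups did not overlap, yet edgeR did not call the difference (log2 -1.52, SE 0.40, unadjusted p = 0.00252, adjusted p = 0.334), and DESeq2 did (log2 -1.52, adjusted p = 0.00141). With edgeR 0 of 11 motile and 0 of 22 general genes passed, where 0 of all 13880 genes did. At an unadjusted p under 0.05 there were 2 motile and 2 general genes (Foxj1, Dnah7b, Ift122 and Ift57), all lower on ACR, where 1005 of all 13880 genes were under 0.05. DESeq2 called Foxj1 alone among members.

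Dnah7b in LiKM went from 1.14, 1.44 and 1.47 CPM to 0.342, 0.373 and 0.61 CPM on ACR (log2 -1.49, edgeR adjusted p = 0.459). Ift57 went from 2.46, 4.16 and 4.22 CPM to 0.809, 1.69 and 2.26 CPM (log2 -1.18, edgeR adjusted p = 0.527), and Ift122 from 7.68, 6.55 and 7.16 CPM to 5.72, 3.80 and 4.73 CPM (log2 -0.58, edgeR adjusted p = 0.435). In each of these genes the diets did not overlap. Over all members, 5 of 17 motile and 3 of 22 general genes lay wholly lower on ACR and 0 wholly higher. Of all genes with the same summed count, 6.95% and 3.9% did. Among the 5, Dnah7a and Dnah9 reached the summed count of 10 only through LiKM on the normal diet. They had 2, 3.5 and 2.5 and 4, 1 and 3 counts there. Dnah7a also shares reads with Dnah7b, so the count of 5 is a description. The motile sum without Rsph3a and Rsph3b was 9.05, 9.59 and 14.8 CPM on ACR against 17.6, 18.2 and 21.1 CPM on the normal diet, whereas the sum of all 17 overlapped, at 37.3, 34.1 and 45.3 against 45.7, 44.2 and 48.9 CPM. The cholangiocyte markers lay in the same direction: 18 of 18 had a negative log2 fold change (median -1.26), with 12 at an unadjusted p under 0.05, 0 called by edgeR and 6 lower by DESeq2, and their sum was 556 to 796 CPM on ACR against 902 to 1402 CPM. The 5 tested mesothelial markers were negative too (summed level of all 6 on the list 4.88 to 14.1 against 14.4 to 27.2 CPM), with 0 called by edgeR, 1 at an unadjusted p under 0.05 and 1 lower by DESeq2. The part of either list in the ciliary values was not tested.

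Foxj1 was also set against 4 of the 18 cholangiocyte markers within each LiKM library, and not against the others. Its ratio to Krt19 was 0.597, 0.738 and 0.8 without the drug and 0.907, 0.892 and 0.735 with it, which overlap (exact permutation test, two-sided, p = 0.3, where 0.1 is the smallest possible with 3 against 3). Its ratio to Sox9, a factor of duct and progenitor cells, was 0.373, 0.325 and 0.305 without the drug and 0.290, 0.128 and 0.175 with it, with no overlap (exact permutation p = 0.1). The ratio to Ehf, an epithelial factor, was 0.61 ± 0.10 and 0.72 ± 0.13 (exact permutation p = 0.3) and that to Epcam 0.47 ± 0.07 and 0.39 ± 0.07 (exact permutation p = 0.2). These 4 ratios could not reach p under 0.1, and adjusted values would be no lower.

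The difference of the diet effects between the strains was tested for each gene as 1 contrast. EdgeR called 0 of 11 motile and 0 of 22 general genes, where 0.0072% of all genes (1 gene) passed. At an unadjusted p under 0.05 there were 2 motile and 5 general genes, where 1593 of all 13880 genes were, and DESeq2 called Dnah5 (adjusted p = 0.0148). For Foxj1 the difference was log2 -1.99 (SE 0.91, edgeR adjusted p = 0.435), and for Ift122 -0.95 (SE 0.26, edgeR adjusted p = 0.225).

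Other genes of the same machinery were counted on the normal diet in 9 lists made by function. With TMM 13.2% of all genes tested rose, and with library size alone 4716 of 13880 did. The list counts that rose were larger with library size alone. They were 5 of 7 dynein partners, 4 of 7 assembly factors, 4 of 6 spoke and central pair genes and 5 of 8 other motile genes. For the primary cilium they were 11 of 19 motors and transport subunits, 5 of 10 Bardet-Biedl, 10 of 16 transition zone and 11 of 16 membrane and signalling genes. The listed genes met the same low-count filter as the members, and which reached it only through LiKM was not counted. These counts are therefore a description. The filter kept 7 of 13 dynein partners, 7 of 12 assembly factors, 6 of 17 spoke genes, 8 of 28 other motile genes and 7 of 17 multiciliogenesis regulators. With TMM the counts were as follows. Of partners of axonemal dyneins, 3 of 7 tested rose and 0 fell. Ccdc114, which docks outer arms, went from 0.0468 ± 0.0427 to 1.95 ± 0.598 CPM (log2 5.19, edgeR adjusted p = 0.000589), and Wdr78, an intermediate chain, and Dnal1, a light chain, rose by log2 1.90 and 1.12. Of dynein assembly factors 2 of 7 rose, Dnaaf3 (log2 1.99) and Ruvbl2 (0.61), a helicase with many other roles. Of radial spoke, central pair and regulatory complex genes 2 of 6 rose, Gas8 (log2 1.04) and Ccdc39.

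Of other motile cilium genes, 3 of 8 rose. Cfap44 was at 0, 0 and 0.0837 CPM in LiK and at 1.5, 1.13 and 0.954 CPM in LiKM (log2 5.27, edgeR adjusted p = 0.0028), and Cfap69 at 0.211, 0.0566 and 0.251 against 3.42, 2.25 and 3.58 CPM (log2 4.18, edgeR adjusted p = 0.000954). Neither gene overlapped between the strains, and Tppp3 was the remaining one. Of the regulators of multiciliogenesis 0 of 7 tested passed edgeR's test, with 1 at an unadjusted p under 0.05, 0 by DESeq2 and 3 higher with library size alone. These include Rfx2 and Rfx3, RFX factors of ciliary genes, at 0.586 to 0.792 and 4.07 to 4.79 CPM in LiK and 0.84 to 1.62 and 3.81 to 5.97 CPM in LiKM.

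Among genes of the primary cilium, 6 of 19 motors and remaining transport subunits rose and 0 fell. Tulp3, which brings receptors to the cilium, rose from 0.844 ± 0.201 to 4.78 ± 1.2 CPM (log2 2.47, edgeR adjusted p = 0.000589), Dync2li1, of the return motor, by log2 2.14 and Kif3a, of the outward motor, by 0.87. Of remaining Bardet-Biedl genes 2 of 10 rose, Arl6 (log2 1.12), the GTPase that recruits the BBSome, and Trim32 (0.55). Of transition zone genes, which form the gate at the base of the cilium, 5 of 16 rose, led by Tmem231 (log2 3.53), Tctn1 (0.77) and B9d1 (2.32).

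Of primary cilium membrane and signalling genes, 5 of 16 rose and 1 fell. Pkhd1, the fibrocystin of bile duct and kidney cilia, rose from 6.51 ± 1.61 to 35.2 ± 5.25 CPM (log2 2.44, edgeR adjusted p = 0.000214), and Pkd2, the polycystin channel, from 20.8 ± 0.645 to 38.5 ± 2.45 CPM (log2 0.89, edgeR adjusted p = 0.000375). Ptch1, the Hedgehog receptor, fell by 0.80 on the log2 scale (edgeR adjusted p = 0.0135), a call lost with library size alone. On ACR, Cfap69 (log2 3.22), Cfap44 (2.78), Tmem231 (2.84), Cep290 (0.63) and Pkd2 (0.45) rose across these lists in LiKM against LiK, and Adcy6, an adenylyl cyclase also found in cilia, fell by 0.72 on the log2 scale, also lost with library size alone. These are all of the genes in the 9 lists past the threshold on ACR (edgeR adjusted p from 0.00891 to 0.0416).

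**Figure D4:**
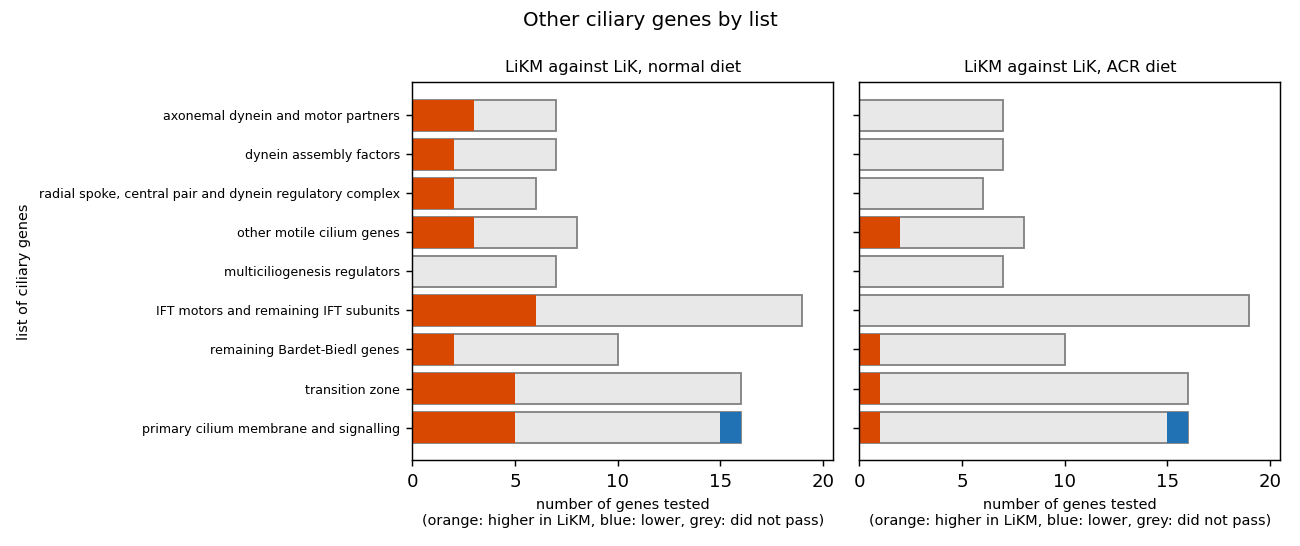
Number of genes tested (x axis, bar length) in each of 9 lists of other ciliary genes (y axis), with those higher in LiKM in orange, those lower in blue and those that did not pass in grey, for each diet. On the normal diet 8 of the 9 lists hold at least 2 genes that rose, whereas on ACR 6 of all genes shown passed. Of all genes tested, 13.2% rose and 8.61% fell on the normal diet, and 5.55% rose and 4.24% fell on ACR.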

How the data were processed

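Poly(A) RNA was sequenced from 12 livers with a stranded mRNA kit, per the labels' protocols. The authors deposited 1 table of expected counts per gene symbol, of whose values above 0 18.9% are not whole. Per the submitters' processing notes, featureCounts 2.0.0 and the mm10 build were used. Aligner, annotation, strand setting and handling of shared reads are not given there, so overlapping genes and near copies are uncertain. Of the value columns, 0 were unmatched to a sample.

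Counts were rounded, filtered with filterByExpr (13880 genes kept), scaled with TMM and tested with edgeR 4.0.16 (R 4.3.3; quasi-likelihood, robust, 1 coefficient per group, all 12 libraries; common biological coefficient of variation 0.203). Benjamini-Hochberg adjustment ran over all tested genes in each of 5 comparisons, with a threshold of 0.05, and "rose" and "fell" refer to it. DESeq2 1.42.0, other scalings, no filter, blocks and left-out libraries were alternatives. The fits were tested on simulated data. The floors used for groups with 0 counts cover counting error only, whereas the SE and SD include the spread between mice.

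The genes and lists were chosen with earlier results of these data known. The text names Foxj1, members past the threshold or too low for the test, up to 3 genes of smallest p from each list of other ciliary genes, and cholangiocyte and multiciliated markers. Other members are given as examples chosen after their values were seen, as are Mdm2 and the clock genes. The mouse numbers were checked for pairing by the correlation of deviations from group means across genes. It exceeded 0.1 for every number only between the 2 diets of LiKM (0.37, 0.22 and 0.48), although no label says what they share. The numbers were therefore used as a block within LiKM, as an alternative only. The main fits and the permutation tests of the Foxj1 ratios are unpaired. One allele that both strains carry is not reported here.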

Additional observations from a re-analysis of the deposited data

How the results depend on the processing

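Depth limits the motile genes: 13 of 17 had at most 30 counts in any library. Of the calls between strains on the normal diet, those of Foxj1, Dnah5, Dnah7b, Ift57, Ift122 and Bbs12 held in every alternative that gave them a value, and that of Foxj1 on ACR too. The calls of Rsph9 and Bbs2 ended without LiK normal diet 1 or 3. That of Rsph9 also ended without LiKM normal diet 1 or 2, when only the compared groups were fitted and after adjusting for the letters that open each library identifier (adjusted p = 0.108), and that of Bbs2 without LiKM normal diet 3 (adjusted p = 0.0503). The cause was not tested.

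The fall of Foxj1 on ACR in LiKM passed with DESeq2 alone (adjusted p = 0.00141). Counts below are in the order strain on ACR, ACR in LiK, ACR in LiKM, difference of diet effects. DESeq2 called 2 motile, 2 general and 2150 of all genes, then 1 motile and 397, 1 motile and 79, and 1 motile and 160. Library size alone gave 8 motile, 13 general and 4831 of all genes for the strains on the normal diet and 16 for the difference, with medians of all genes of 0.40, 0.14, 0.13, -0.16 and -0.29 from the normal diet on. No filter gave 2 for the difference. Fitting only the groups compared gave 812 for ACR in LiK. These letters as a covariate gave 1 general gene on ACR, 16 of all genes for ACR in LiK and 0 for the difference. Without the 3 libraries apart in clock genes the counts of all genes were 555, 624, 1 and 15.

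The mouse numbers as a block over all libraries gave 2 motile genes on ACR and 2 of all genes for the difference. The block within LiKM, where the numbers pair by the correlation, gave 2 motile and 1 general gene on ACR, 701 of all genes for ACR in LiK, 9 for ACR in LiKM and 260 for the difference. It ended the normal-diet calls of Dnah2 (adjusted p = 0.0685), Rsph9 and Bbs2 and added Dnah1 (log2 2.17) and Ift81 (log2 0.80). On ACR it added Dnah1 (log2 2.53) and Ift46 (log2 -0.94). It changed no other call between strains among the 33 tested members.

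With single libraries left out, the strains on the normal diet gave 4 to 6 motile, 3 to 5 general and 1658 to 3384 of all genes (1658 and 1862 when LiK mouse 1 or 3 of that diet was dropped). On ACR they gave 1 to 2, 0 to 2 and 312 to 1695 (565, 312 and 761 without LiK ACR 1, 2 and 3, and 743 without LiKM ACR 2). Counts over all genes ranged from 0 to 108 for ACR in LiK, 0 to 5 for ACR in LiKM and 0 to 20 for the difference, and members stayed at 0 there. The log2 fold change of Foxj1 for ACR in LiK ran from -0.80 (without LiK ACR 1, adjusted p = 0.781) to 1.07. The cause was not tested.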
